A study of Mus musculus with 3 samples.

Results

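A set of 38 mouse genes that cells switch on for the G2 and M phases of the cell cycle were followed through Kit-enriched bone marrow, before and after challenge with Escherichia coli. The members were taken by symbol, and all 38 were found among the 31053 genes of the 3 count tables. Each library came from C57BL/6 bone marrow enriched for cells bearing Kit, the stem cell factor receptor, and the kit was 10x Genomics 3 prime chemistry of version 2. The unchallenged library is labelled steady state, the challenged once library 1 E. coli challenge and 24 h, and the rechallenged library 2 challenges and 48 h. The labels do not state when the hours begin, the route or dose, the age or number of mice, or whether animals were pooled. How often the mice were challenged and the labelled hours differ together and cannot be told apart. The source label reads neutrophil, and the series' design text names 2 samples and a treatment that the sample labels do not carry, so the sample labels were followed. With 1 library in each group there is no replicate, so no difference below was tested across animals, and every interval is a 95% interval that covers counting error only.

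Entry into mitosis is driven by the kinase Cdk1 bound to a B-type cyclin. Polo-like and Aurora kinases then build the spindle, kinetochore proteins attach chromosomes to it, and the anaphase promoting complex ends the phase by marking cyclins and securin for destruction. Transcripts of these genes build up in G2 and are lost after division, so blood cell precursors that divide carry them and neutrophils that have left the cycle should not. In quiescent cells the DREAM complex represses many such genes through a promoter element called the cell cycle homology region (CHR), and in cycling cells B-MYB and FOXM1 act through the same element. CCAAT boxes bound by NF-Y often lie upstream of it.

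Promoter stretches of 7 members are printed because they show the layout that most members share and, with Cks2, an abundant member without the CHR letters. Each runs from 100 bases before to 30 bases after the RefSeq transcription start on GRCm38.p6, 5′ to 3′ along the gene's strand. Capitals mark the CHR letters TTTGAA or TTCGAA and the CCAAT box, each on either strand, where ATTGG is CCAAT on the other strand.
Ccnb2, chr9:70421525-70421654, minus strand: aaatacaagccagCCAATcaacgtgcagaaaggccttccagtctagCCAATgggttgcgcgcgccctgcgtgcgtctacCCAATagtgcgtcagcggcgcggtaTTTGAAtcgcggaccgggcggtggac
Cdk1, chr10:69352883-69353012, minus strand: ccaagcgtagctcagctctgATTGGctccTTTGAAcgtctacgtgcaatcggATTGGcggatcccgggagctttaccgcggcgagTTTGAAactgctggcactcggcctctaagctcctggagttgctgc
Cdc20, chr4:118437314-118437443, minus strand: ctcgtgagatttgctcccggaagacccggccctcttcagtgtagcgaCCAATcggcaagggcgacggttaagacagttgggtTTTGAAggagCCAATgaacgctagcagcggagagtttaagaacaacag
Cdca8, chr4:124936888-124937017, minus strand: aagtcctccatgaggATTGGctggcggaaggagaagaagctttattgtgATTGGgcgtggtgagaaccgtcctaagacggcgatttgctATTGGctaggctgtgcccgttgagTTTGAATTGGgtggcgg
Cenpf, chr1:189688057-189688186, minus strand: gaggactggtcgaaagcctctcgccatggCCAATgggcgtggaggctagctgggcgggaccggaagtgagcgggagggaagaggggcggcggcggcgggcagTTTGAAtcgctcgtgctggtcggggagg
Hmmr, chr11:40733408-40733537, minus strand: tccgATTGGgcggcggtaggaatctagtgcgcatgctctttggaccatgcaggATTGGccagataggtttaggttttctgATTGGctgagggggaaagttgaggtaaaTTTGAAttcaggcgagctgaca
Cks2, chr13:51645132-51645261, plus strand: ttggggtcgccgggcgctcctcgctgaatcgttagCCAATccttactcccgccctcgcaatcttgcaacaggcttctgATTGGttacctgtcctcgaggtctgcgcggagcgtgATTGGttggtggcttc
In Cdca8 the TTTGAA and the last ATTGG share 1 base. Positions are counted from the start site, with no base 0. The TTTGAA nearest the start begins at -18 in Cdc20, at -15 in Cdk1, at 3 in Cenpf, at 5 in Ccnb2, at 9 in Hmmr and at 14 in Cdca8.

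RefSeq windows of 300 bases (250 before and 50 after the start) were found for 33 of the 38 members, and Aurkb, Cdca2, Dlgap5, Smc4 and Tpx2 had none. TTTGAA or TTCGAA occurred in 27 of the 33 (81.8%), against 20.1% of 19374 other genes with a window of the same length. The 6 members whose windows lacked both were Birc5, Cenpe, Cks2, Nuf2, Nusap1 and Tacc3. CCAAT occurred in 26 members (78.8%) against 41.7% of the other genes, and both kinds of element in 24 (72.7%) against 8.13%. When only CHR letters beginning from -60 to 50 were counted, 23 members (69.7%) and 5.79% of the other genes had them. These are matches of letters, not evidence of binding.

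The libraries held 119646078 unchallenged, 135079828 challenged once and 95522747 rechallenged unique molecular identifiers (UMIs, counted mRNA molecules) over 9684, 9060 and 8923 barcodes. Barcode sequences shared between pairs of libraries numbered 103 to 125. After filtering, 8796, 8356 and 8286 cells remained, with median depths of 10969, 13004 and 10247.5 UMIs and median mitochondrial shares of 2.07%, 2.58% and 4.10%. So that deep cells would not count more, 2000 UMIs were drawn at random from each cell and shallower cells were left out, which kept 8417, 7683 and 7526 cells. Levels are UMIs of a gene per 1000000 drawn UMIs of a group of cells (CPM), and triplets of values are given in the order unchallenged, challenged once and rechallenged. Counts are of 3 prime ends and were not divided by length, so levels of different genes are not compared. Kit itself stood at 111, 83.1 and 160.0 CPM in cells resembling haematopoietic stem and progenitor cells (HSPC-like), and at 11.2, 8.97 and 4.04 CPM in immature neutrophil-like cells.

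Among the kinases and their partners, all but Cks2 were low in mature neutrophil-like cells. Cdk1, the mitotic kinase, stood at 55.6, 77.9 and 56.4 CPM in HSPC-like cells and at 85.7, 104 and 86.0 in neutrophil progenitor-like cells. Its partner cyclin Ccnb2 stood at 57.1, 75.9 and 75.5 in HSPC-like cells and at 72.3, 93.3 and 72.2 in neutrophil progenitor-like cells. Cdk1 was highest in the challenged once library in both groups, and Ccnb2 was so in neutrophil progenitor-like cells, while in HSPC-like cells its 2 challenged libraries were nearly equal. Cks2, a small subunit that binds cyclin-dependent kinases, stood at 259, 314 and 231 in HSPC-like cells and at 586, 583 and 469 in neutrophil progenitor-like cells. Aurka, the Aurora kinase of the centrosome, stood at 15.9, 22.6 and 20 and at 41.9, 52.5 and 36.7 in the same groups. Plk1, Bub1 and Ttk, kinases of mitotic entry and the spindle checkpoint, lay between 7.27 and 40.7 CPM in these groups.

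The factors of protein destruction and the chromosomal passenger complex split in the rechallenged library. Cdc20, the activator of the anaphase promoting complex, stood at 43.7, 53.3 and 32.7 CPM in HSPC-like cells and at 72.3, 89.7 and 45.7 in neutrophil progenitor-like cells. Ube2c, the ubiquitin-conjugating enzyme of that complex, stood at 106, 136 and 122 and at 178, 224 and 173. Cdca3, a factor of mitotic entry, stood at 49.2, 67.7 and 59.1 and at 81.9, 123 and 97.5. Of the 3, Cdc20 alone was lower in the rechallenged than in the unchallenged library in both groups. In the passenger complex, Birc5 (survivin) stood at 98.4, 127 and 98.2 in HSPC-like cells and at 180.2, 243 and 183 in neutrophil progenitor-like cells. Cdca8 (borealin) stood at 65.1, 94.4 and 58.2 and at 98.7, 104 and 59.5. Its kinase Aurkb stood at 19.0, 34.4 and 23.6 and at 48.7, 61.3 and 42.3. Birc5 thus differed little between the unchallenged and rechallenged libraries while Cdca8 was lower in the latter, by more in neutrophil progenitor-like cells.

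Of the centromere and kinetochore members, Cenpa, the centromeric histone, stood at 95.2, 122 and 118 CPM in HSPC-like cells and at 127, 165 and 145 in neutrophil progenitor-like cells. Hjurp, the chaperone that loads it, stood at 69.8, 79.5 and 87.3 and at 57.8, 62.8 and 52.8. The motor Cenpe stood at 23.0, 31.8 and 33.6 and at 37.6, 33.2 and 27.0, so its order of libraries was not the same in the 2 groups. Cenpf, a protein of the outer kinetochore, stood at 54.0, 69.7 and 59.1 and at 35.2, 49.8 and 26.7. Ndc80 and Nuf2, which hold microtubules at the kinetochore, lay between 5.56 and 29.9.

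For each of the 4 most abundant spindle proteins, as for the 4 centromere and kinetochore members above, HSPC-like cells of both challenged libraries lay above the unchallenged library. Nusap1, which bundles spindle microtubules, stood at 45.2, 50.3 and 71.8 CPM in HSPC-like cells and at 51.5, 45.8 and 44.9 in neutrophil progenitor-like cells. Tpx2, the activator of Aurka, stood at 22.2, 48.7 and 42.7 and at 40.9, 50.8 and 45.1. Tacc3, which crosslinks spindle microtubules, stood at 18.3, 30.8 and 30 and at 36.6, 51.8 and 47.2. The motor Kif11, which pushes the spindle poles apart, stood at 23.0, 34.9 and 25.5 and at 25.5, 36.7 and 35.1. Kif2c, Hmmr, Dlgap5, Psrc1 and Ckap2l lay between 2.42 and 36.4 in both groups.

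In cytokinesis, Kif23, a motor of the central spindle, stood at 33.3, 42.1 and 51.8 CPM in HSPC-like cells and at 18.3, 17.3 and 27.2 in neutrophil progenitor-like cells. The kinesin Kif20b stood at 27.8, 31.8 and 13.6 and at 28.9, 28.2 and 15.9. Ect2, which activates the GTPase of the cleavage furrow, stood at 10.3, 18.5 and 21.8 and at 14.0, 22.9 and 22.6. Kif20b was thus lowest in the rechallenged library in both groups, where Kif23 was highest. Among the members of chromosome structure, Top2a, the topoisomerase that untangles sister chromatids, stood at 148, 229.7 and 258 in HSPC-like cells and at 171, 206 and 192 in neutrophil progenitor-like cells. The condensin subunit Smc4 stood at 129, 165 and 113 and at 175, 167 and 143. Mki67, the coat of mitotic chromosomes and the source of the Ki-67 antigen, stood at 48.4, 58.5 and 86.4 and at 60.2, 73.9 and 95.7. Its level was highest in the rechallenged library in both groups. Cdca2, which brings a phosphatase to chromosomes, stood at 15.1, 25.6 and 15.5 and at 16.9, 20.1 and 13.8.

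Hmgb2, Anp32e and Tubb4b were set apart because non-dividing cells also make them, and sums below are over the other 35 members. Mature neutrophil-like cells showed this in the challenged once and rechallenged libraries; the unchallenged library had 3 such cells and none of 2000 UMIs. Hmgb2, a chromatin protein, stood at 1593 and 1028 CPM there, against 1343 and 962 in HSPC-like cells of the same libraries. Tubb4b, a beta tubulin, stood at 81.5 and 30.6 CPM in mature neutrophil-like cells. Anp32e, a chaperone of the histone H2A.Z, did not share this and stood at 11.2 and 5.10 CPM.

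Of the 35, Cks2 persisted most, at 230.3 and 166 CPM in mature neutrophil-like cells, and it had the smallest HSPC-like to mature ratio of the 35 in both libraries, at 1.36 and 1.39. Cenpa stood at 56.2 and 20.4 CPM and Hjurp at 36.5 and 33.2. At the other end, Top2a was 20.4-fold higher in HSPC-like than in mature neutrophil-like cells of the challenged once library, on 4 UMIs in the latter. Ccnb2 was 29.6-fold higher in the rechallenged library, on 1 UMI. These were the largest ratios among members with any UMI in mature neutrophil-like cells, and counts this low leave them imprecise. No UMI at all was found there for 7 members in the challenged once and 14 in the rechallenged library. The 35-member sum stood at 539 CPM (466 to 621) and 365 CPM (307 to 430) in mature neutrophil-like cells, against 2222 (2156 to 2289) and 1974 (1891 to 2058) in HSPC-like cells. Cks2 alone gave 82 of 192 and 65 of 143 UMIs of the mature neutrophil-like sums. In HSPC-like cells it gave 612 of 4333 and 254 of 2171. The mature neutrophil-like sums, with Cks2 in them, are the background against which the cell groups are read.

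The members were concentrated in the same cells. For each member, cells with at least 5 drawn UMIs over the other members of the 35 were found, and the share of the member's own UMIs in those cells was taken. The median over the 38 members was 81.9%, 76.6% and 70.7% in the 3 libraries, against 46.1%, 47.2% and 43.5% for all genes with at least 100 UMIs. A share of at least 75% was reached by 32, 28 and 11 members, and by 1.22%, 0.76% and 0.22% of all genes tested. The members were chosen with earlier results of these data known, so their contrast with all genes is a description only. Nusap1 had 90.7% (89.2 to 92.0), 89.6% (87.7 to 91.4) and 83.1% (80.7 to 85.4) of its UMIs in such cells. Hmmr, a spindle protein and hyaluronan receptor, had 90.3%, 87.2% and 80.4%. Hjurp lay lowest in 2 libraries at 56.5% and 54.4%, with 56.2% in the rechallenged library, and Anp32e had 63.9%, 60.9% and 52.8%. Cells with at least 5 UMIs over all 35 were deeper before drawing, at medians of 13923, 20551 and 12812.5 UMIs against 8367, 9445.5 and 9470 in the other cells, and the part of depth in these shares was not tested.

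**Figure D1:**
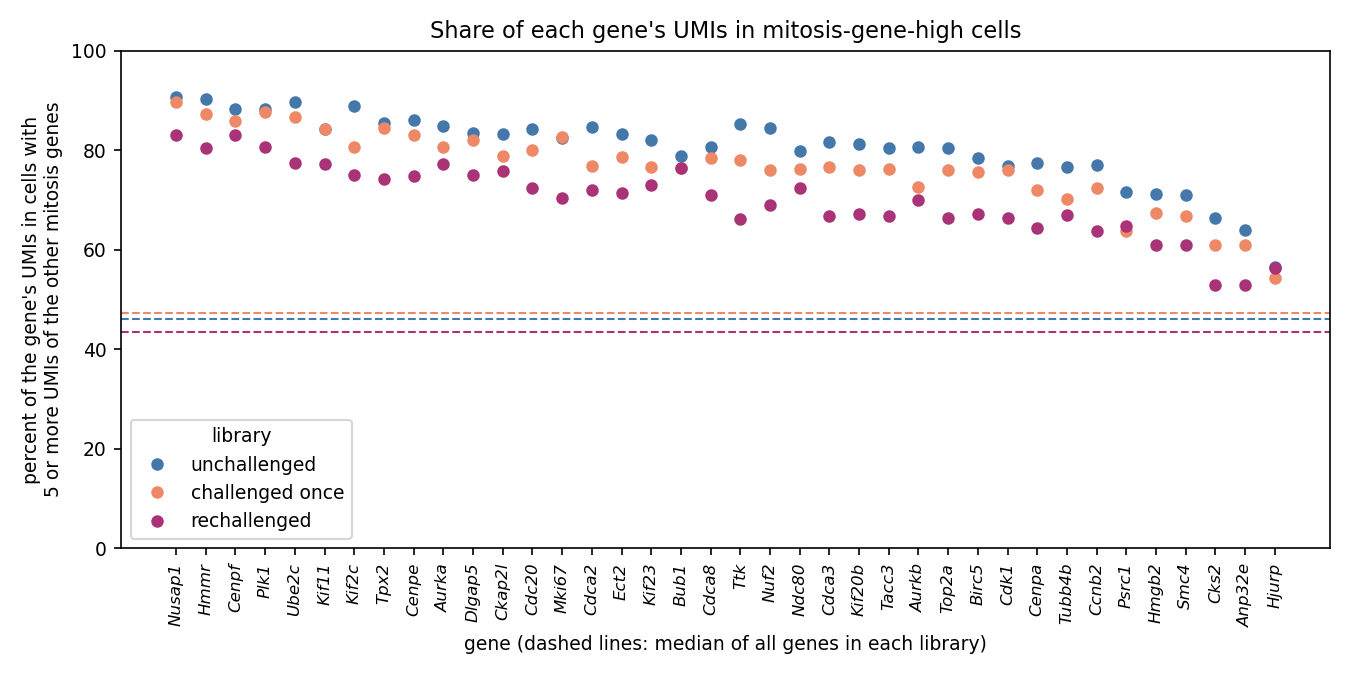
Percent of each member's UMIs (y axis) found in cells with 5 or more drawn UMIs of the other 35 mitosis genes, for each member (x axis) and library (colour), with dashed lines at the median of all genes. Nusap1 lies at 90.7%, 89.6% and 83.1%, and every member lies above the dashed lines at 46.1%, 47.2% and 43.5%.

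By the median of the 3 libraries, the 35-member sum was highest in B lineage-like and erythroid-like cells among the cell groups. Per cell of 2000 UMIs it was 9.14, 7.19 and 9.81 UMIs in B lineage-like cells and 8.61, 7.32 and 7.01 in erythroid-like cells. Of 1235, 1489 and 508 B lineage-like cells, 171, 360 and 331 were shallower than 2000 UMIs and left out. The rechallenged values of that group thus describe its 177 deeper cells. Immature neutrophil-like cells, marked by secondary granule genes such as Ltf and Camp, held 6.37, 7.45 and 5.42, and were highest in the challenged once library. Monocyte-like cells (median of the 3 libraries 5.45), dendritic cell-like cells (5.25) and neutrophil progenitor-like cells (5.02) followed, and neighbours down to this point overlapped in their ranges over libraries. Neutrophil progenitor-like cells lay at 4.76 to 5.81, above the range of basophil or mast cell-like cells at 4.03 to 4.35. Below these came megakaryocyte-like cells (4.33), HSPC-like cells (3.95) and, just above them, T, NK or innate lymphoid-like cells (4.01), again with overlapping ranges. HSPC-like cells held 3.32, 4.44 and 3.95, and mature neutrophil-like cells 1.08 and 0.73.

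**Figure D2:**
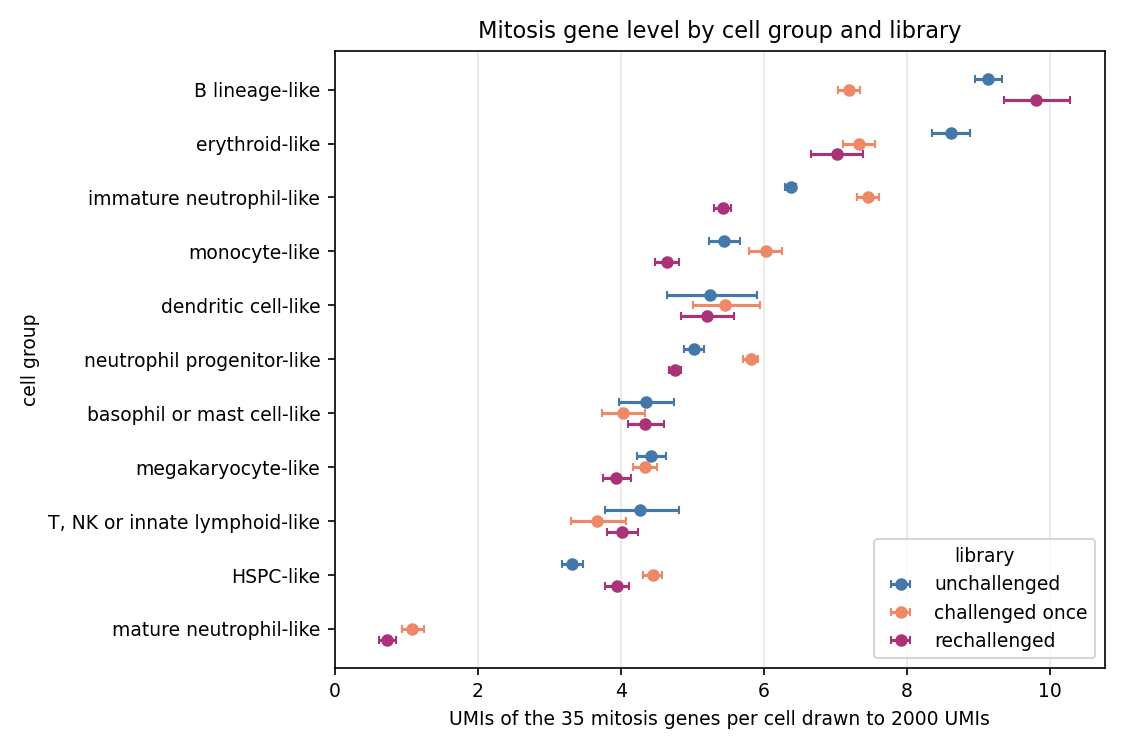
UMIs of the 35 mitosis genes per cell drawn to 2000 UMIs (x axis) by cell group (y axis) and library (colour), with 95% Poisson intervals for counting error. B lineage-like cells lie at 7.19 to 9.81 and HSPC-like cells at 3.32 to 4.44, and mature neutrophil-like cells at 1.08 and 0.73 lie below all other groups.

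The order holds for equal numbers of UMIs and not for cells as they were. Without the draw, erythroid-like cells held 142, 100.2 and 64.6 member UMIs per cell and B lineage-like cells 39.2, 24.7 and 24.0. Neutrophil progenitor-like cells held 51.0, 81.6 and 38.9, and HSPC-like cells 21.4, 39.1 and 21.9. Median depths went with these values, at 33126, 27027 and 18580.5 UMIs in erythroid-like cells and 4310.5, 3246 and 3972 in B lineage-like cells.

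Within groups, clusters differed by more than most groups did. One B lineage-like cluster held 16.7, 14.7 and 11.1 member UMIs per drawn cell, and another held 3.09 and 2.86 in the unchallenged and challenged once libraries and had too few rechallenged cells. Of the 2 erythroid-like clusters, one held 11.8, 11.4 and 10.1 and the other 6.90, 6.43 and 4.95. Along the neutrophil clusters the sum went up and then down. It was 4.11 to 6.19 in the neutrophil progenitor-like clusters, which carry primary granule genes such as Elane and Mpo. It was 7.38 and 7.46 (unchallenged and challenged once) in cluster 13, whose leading genes include Fcnb and Cebpe, and 9.05 and 9.91 in cluster 0, where they include Chil3, Ngp and Ltf. In cluster 10, almost wholly of rechallenged cells, it was 6.78. It was 3.59, 5.67 and 4.55 in cluster 5. In cluster 11, whose leading genes include the later genes Mmp8, Mmp9 and Retnlg, it was 1.38, 1.13 and 0.62, close to the mature neutrophil-like cluster. Clusters were set by gene expression and their sequence here is the known order of granule genes, not a measured time.

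**Figure D3:**
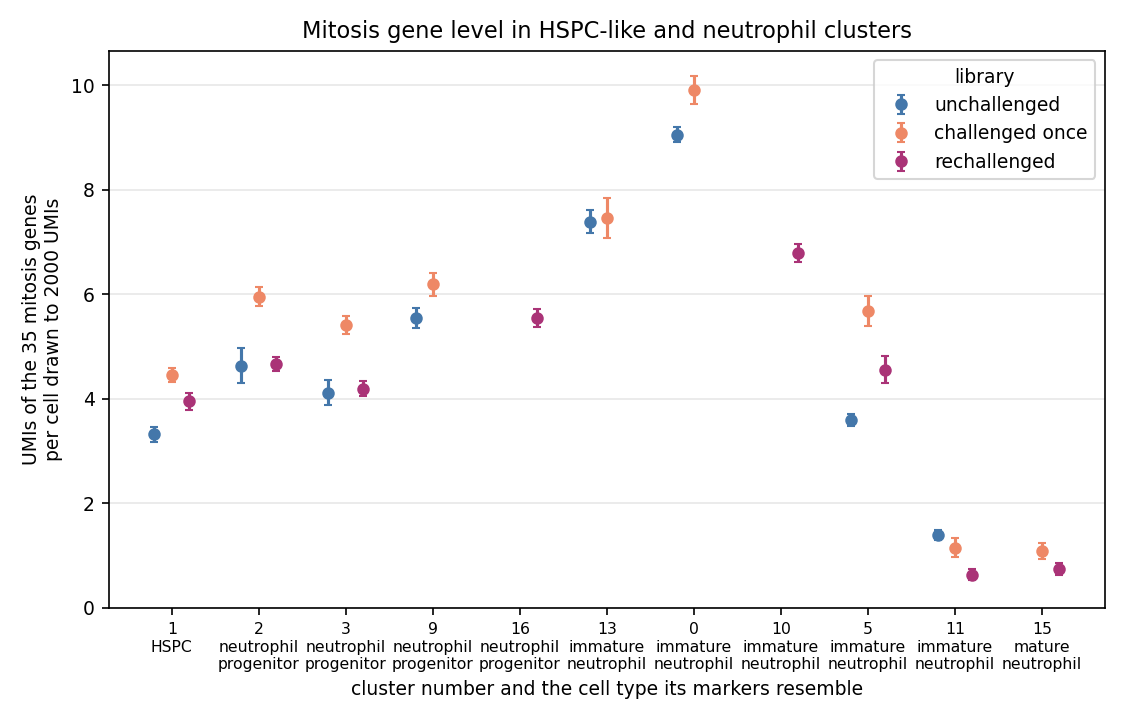
UMIs of the 35 mitosis genes per cell drawn to 2000 UMIs (y axis) in the HSPC-like, neutrophil progenitor-like and neutrophil clusters (x axis) with at least 50 drawn cells, by library (colour), with 95% Poisson intervals. Cluster 0 is highest at 9.05 and 9.91, and clusters 11 and 15 lie at 1.38 or below.

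The share of cells with at least 5 drawn UMIs over the 35 members does not order the cell groups as the sum does. B lineage-like cells, highest by the median over libraries of the mean sum per cell, had shares of 42.3%, 30.4% and 58.2%. These lay below erythroid-like cells at 81.8%, 74.2% and 61.4% in each library. The rechallenged B lineage-like share is of 177 drawn cells out of 508. Immature neutrophil-like cells had 52.1%, 61.3% and 52.3%. In HSPC-like cells it was 19.2% (16.2 to 22.5), 35.2% (32.2 to 38.3) and 33.3% (29.3 to 37.4). In neutrophil progenitor-like cells it was 45.1% (42.0 to 48.2), 58.2% (55.97 to 60.35) and 47.1% (45.2 to 49.0). In mature neutrophil-like cells, which should lack these transcripts, it was 1.12% (0.14 to 4.0) of 178 challenged once cells. None of 196 rechallenged ones reached 5, which allows a share of up to 1.86%. Their median depths before the draw were 2841.5 and 2756 UMIs, and those of HSPC-like cells 8544, 13359 and 8511.5. The unchallenged library had no drawn mature neutrophil-like cell, but cluster 11 gave 1.80% there, with 1.46% and 0.85% in the other libraries.

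The limit of 5 UMIs is a point on a range and not a cell type. At 4 UMIs the HSPC-like shares were 24.1%, 41.9% and 35.8%, and at 6 UMIs 17.3%, 30.1% and 28.5%. With all 38 members and a limit of 2 UMIs, 91.0% and 75% of mature neutrophil-like cells would have been counted, against 32.0% and 15.3% with the 35. Without the draw, HSPC-like shares at 5 UMIs in the same cells were 66.2%, 77.3% and 60.4%, an order of libraries that went with depth. HSPC-like cells at or above 5 drawn UMIs had median depths of 14684, 17848 and 11229 UMIs before the draw, against 7724, 10892 and 7389 in the rest. At least 2 drawn UMIs of the 36 S phase genes were found in 84.3%, 95.04% and 83.6% of the former and in 73.7%, 84.5% and 74.1% of the latter.

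The first comparison asked how HSPC-like cells differ after 1 challenge. Their 35-member sum was 1659 CPM (1588 to 1731) in the unchallenged and 2222 CPM (2156 to 2289) in the challenged once library. This is 1.34-fold (1.27 to 1.41) higher, the highest ratio of any named cell group in that pair. HSPC-like cells are a single cluster, and other groups pool several. Among single clusters, unnamed cluster 14 (1.39-fold, 1.24 to 1.55) and immature neutrophil-like cluster 5 (1.58-fold, 1.49 to 1.68) lay above it. The other clusters compared lay below it. Of these, neutrophil progenitor-like clusters 3 (1.32-fold, 1.23 to 1.41) and 2 (1.29-fold, 1.19 to 1.39) had intervals that overlapped the HSPC-like one, as did cluster 14. HSPC-like cells are thus not separated from these clusters. Scaled by a median of gene ratios (a log2 shift of -0.012), the HSPC-like ratio was 1.35-fold. Of the 31 members with at least 50 drawn UMIs over the pair, 4 were higher by 1.5-fold or more and none was lower by as much, on log2 ratios after adding 10 CPM. Among all 6045 genes that passed the same minimum, 2.58% were called higher and 2.83% lower. The members' median log2 ratio was 0.34, against 0.000509 over all these genes. Tpx2 (22.2 and 48.7 CPM, log2 ratio 0.87) was furthest apart. Aurkb (19.0 and 34.4, 0.61), Top2a (148 and 229.7, 0.60) and Tubb4b (123 and 190.3, 0.59) followed. The last 3 lie close to the limit of 0.58 that 1.5-fold sets, and the count is not stable. It was 8 with another random seed, 7 with 1 CPM added, 2 with doublet calls kept and 0 without the draw. The share of all genes called was not computed in these runs, so the counts show only that the number moves.

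Other genes of the cycle were also higher in the challenged once HSPC-like cells. Of 54 other mitotic genes, 32 passed the minimum, with 7 called higher and none lower and a median log2 ratio of 0.29. Of 36 S phase genes, 35 passed, with 8 higher and none lower and a median of 0.42. Immature neutrophil marker transcripts moved in the other direction in these cells. All 12 such markers had UMIs in the unchallenged and challenged once libraries and 11 in the rechallenged library, and they summed to 4787, 702 and 695 CPM. The part of these transcripts, of depth and of the cluster's makeup in the difference was not tested. HSPC markers had UMIs for 15 of 15 genes in each library and summed to 2368, 2150 and 1963 CPM.

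The rechallenged HSPC-like cells had a 35-member sum of 1974 CPM (1891 to 2058). This is 1.19-fold (1.12 to 1.26) the unchallenged and 0.89-fold (0.84 to 0.94) the challenged once level. These values depend on how the libraries are scaled. In pairs with the rechallenged library the log2 shift used for scaling by the median ratio was -0.18 for both pairs in HSPC-like cells. It was -0.24 and -0.29 in neutrophil progenitor-like cells. The median log2 ratio of all genes that passed the minimum, with 10 CPM added, is another measure. That median was -0.20 and -0.19 in HSPC-like cells, and -0.092 and -0.16 in neutrophil progenitor-like cells. Scaled by the shift, the rechallenged HSPC-like sum was 1.35-fold (1.27 to 1.43) the unchallenged and 1.007-fold (0.96 to 1.06) the challenged once level. The sum was thus higher than in unchallenged cells on either scale, and its place relative to the challenged once library was not settled.

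Members did not move as one in this pair. Against the unchallenged library, 4 of 27 members were called higher and 1 lower, where 4.11% of 4920 genes were higher and 19.4% lower. Scaled by the median ratio, the split was 7 higher and none lower, where 7.58% of genes were higher and 12.0% lower. Top2a (148 and 258 CPM, log2 ratio 0.76), Mki67 (48.4 and 86.4, 0.72), Tpx2 (22.2 and 42.7, 0.71) and Ckap2l (15.9 and 31.8, 0.69) were furthest apart. Kif20b was the member called lower, at 27.8 and 13.6 CPM (-0.68). The 5 calls in all became 1 to 12 over the alternatives, with 1 without the draw and 12 when clustering used all variable genes. Neither of these runs has a share of all genes to set beside it. Against the challenged once library none of 31 was called higher and 2 lower, with 4.8% of 5786 genes higher and 19.9% lower. The scaled split was 2 higher and 1 lower, where 8.71% of genes were higher and 12.5% lower. The 2 unscaled calls became 4 with another random seed. Kif20b (31.8 and 13.6, -0.82), Cdca8 (94.4 and 58.2, -0.61), Cdc20 (53.3 and 32.7, -0.57) and Smc4 (165 and 113, -0.51) had the largest differences. S phase genes went further, with none of 34 higher, 11 lower and a median of -0.39.

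In neutrophil progenitor-like cells the 35-member sum was 2512 CPM (2444 to 2581), 2906 (2854 to 2960) and 2379 (2337 to 2420). The challenged once level was 1.16-fold (1.12 to 1.20) the unchallenged level, and 1.08-fold when scaled by the median ratio. The rechallenged level was 0.95-fold (0.92 to 0.98) the unchallenged and 0.82-fold (0.80 to 0.84) the challenged once level. Scaled, those became 1.12-fold (1.08 to 1.15) and 1.0001-fold (0.98 to 1.03), so the former turned in direction and the latter lay at equality. Both readings rest on the shift used, which was larger in size than the median log2 ratio of all genes that passed. The libraries filled this group from different clusters. Cluster 9 held 604 unchallenged, 525 challenged once and 30 rechallenged cells, and cluster 16 held 6, 5 and 716. Within cluster 2 the challenged once sum was 1.29-fold (1.19 to 1.39) and within cluster 3 1.32-fold (1.23 to 1.41) the unchallenged one, and within cluster 9 it was 1.12-fold (1.06 to 1.17). The rechallenged sum in clusters 2 and 3 was 1.007-fold (0.93 to 1.09) and 1.02-fold (0.95 to 1.09) the unchallenged one. None of these cluster ratios was scaled by the median ratio, so they compare with the unscaled group values only.

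Few single members passed 1.5-fold in these cells. Of 37 members, 2 were higher and none lower after 1 challenge, where 4.08% of 6955 genes were higher and 1.91% lower. These were Tubb4b (159.9 and 305 CPM, log2 ratio 0.89) and Plk1 (20.2 and 40.7, 0.75), and Cdca3 (81.9 and 123, 0.53) and Ect2 (14.0 and 22.9, 0.46) came next. In the rechallenged against the unchallenged library, 1 member was higher and 2 lower, with 3.58% of 7316 genes higher and 8.13% lower. The scaled split was 3 and none, where 8.61% of genes were higher and 2.83% lower. Cdca8 (98.7 and 59.5, -0.65), Mki67 (60.2 and 95.7, 0.59), Kif20b (28.9 and 15.9, -0.59) and Cdc20 (72.3 and 45.7, -0.56) were furthest apart. In the rechallenged against the challenged once library, none was higher and 4 lower, with 2.44% of 7878 genes higher and 12.9% lower. The scaled split was 2 and 1, where 6.92% of genes were higher and 5.29% lower. The 4 unscaled calls were Cdc20 (89.7 and 45.7, -0.84), Cdca8 (104 and 59.5, -0.72), Cenpf (49.8 and 26.7, -0.70) and Tubb4b (305 and 185, -0.69). These counts moved too, to 4 with another seed in the first pair, to 1 with a draw to 1000 UMIs in the second and to 7 with 1 CPM added in the last. Most of these shares lie near the background, and the members are read by name rather than by count. Of the other mitotic genes, 2 of 47 were higher and none lower after 1 challenge, and of the S phase genes 1 of 36 and none.

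**Figure D4:**
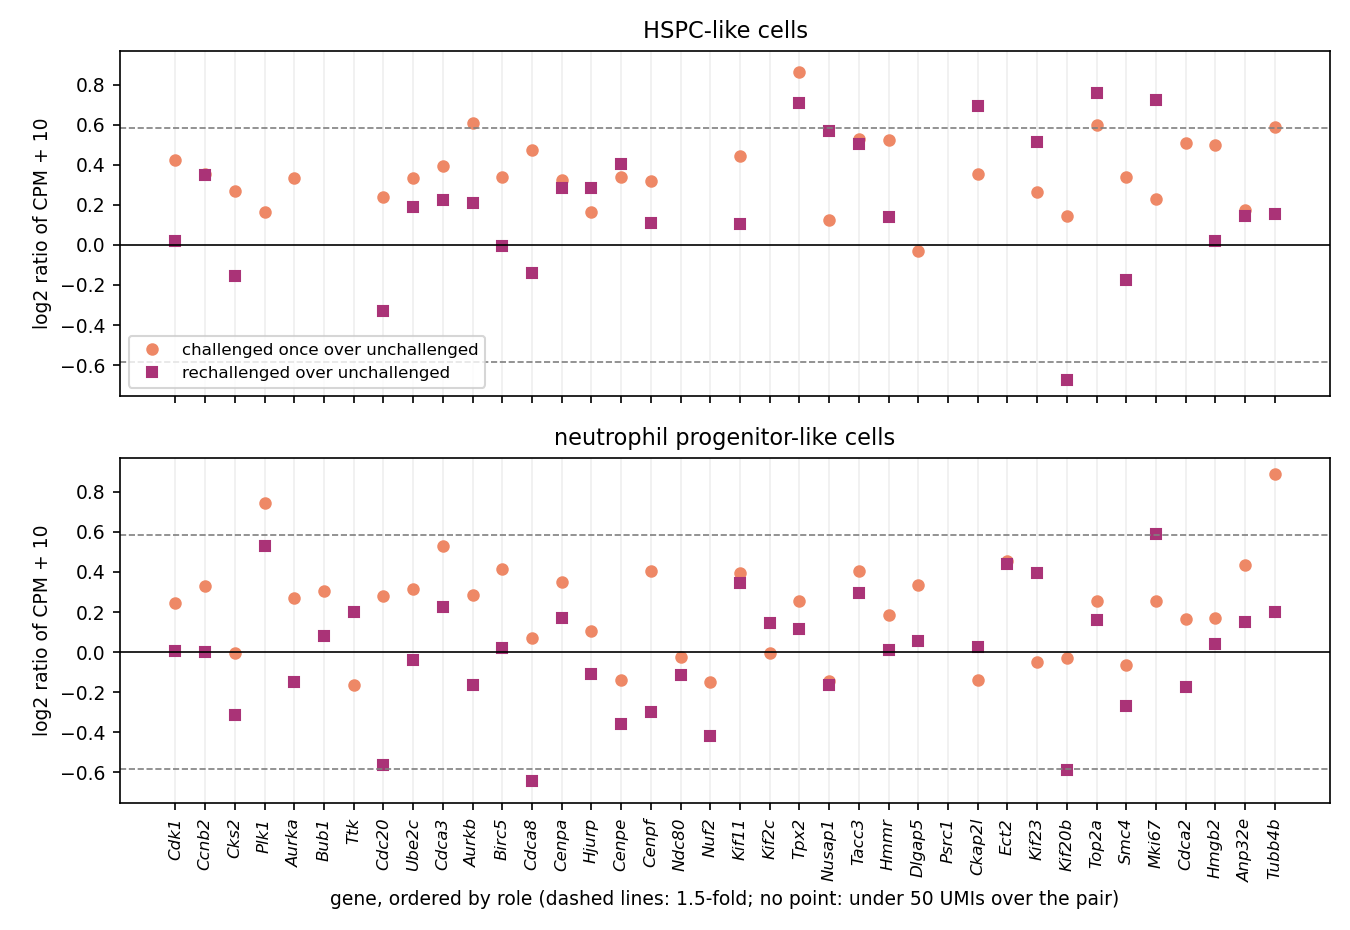
Log2 ratio of CPM + 10 (y axis) for each member (x axis, ordered by role) in HSPC-like and neutrophil progenitor-like cells, for the challenged once (circles) and rechallenged (squares) library over the unchallenged one, with dashed lines at 1.5-fold. In HSPC-like cells Tpx2 has the highest challenged once ratio (0.87) and Kif20b the lowest rechallenged ratio (-0.68).

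Immature neutrophil-like cells show how the mix of clusters bears on a group value. Their sum in the rechallenged library was 0.85-fold (0.83 to 0.87) the unchallenged one, and 0.90-fold (0.88 to 0.92) when scaled by the median ratio. Within cluster 5, the cluster of this group other than cluster 11 with enough cells in all 3 libraries, it was 1.27-fold (1.19 to 1.35). Within cluster 11, where the level was low in each library, it was 0.45-fold (0.37 to 0.54). Cluster 0, where the sum was highest, had 1742 unchallenged, 534 challenged once and 34 rechallenged cells. The challenged once sum was 1.09-fold (1.06 to 1.13) the unchallenged one in cluster 0, 1.58-fold (1.49 to 1.68) in cluster 5 and 0.82-fold (0.68 to 0.97) in cluster 11. These cluster ratios were not scaled. Over the whole group the challenged once sum was 1.17-fold (1.14 to 1.20), and 1.02-fold (0.998 to 1.05) when scaled. In the group Top2a (237 and 399 CPM, log2 ratio 0.73), Kif11 (38.3 and 62.8, 0.59) and Mki67 (119 and 183, 0.59) differed most after 1 challenge, without scaling. Scaled, none of 37 members was called higher or lower, where 1.30% of 6820 genes were higher and 0.85% lower.

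In erythroid-like cells the sum was lower in both challenged libraries than in the unchallenged one, the reverse of HSPC-like cells, and this difference between the cell groups was not tested. The erythroid-like sum was 0.85-fold (0.81 to 0.89) the unchallenged level in the challenged once and 0.81-fold (0.77 to 0.87) in the rechallenged library, and 0.89-fold and 0.90-fold when scaled. The mix of the 2 erythroid-like clusters differed, since the one with the higher level gave 169 of 483 unchallenged, 100 of 563 challenged once and 81 of 202 rechallenged drawn cells. Within the clusters the challenged once sum was 0.97-fold (0.90 to 1.04) in the higher and 0.93-fold (0.88 to 0.99) in the lower one, nearer to equality than the group value. The rechallenged sum was 0.86-fold (0.79 to 0.93) and 0.72-fold (0.65 to 0.79). After 1 challenge none of 30 members was higher and 3 lower, with 1.26% of 4117 genes higher and 2.62% lower. The 3 were Nusap1 (104 and 48.0 CPM, log2 ratio -0.97), Cenpe (78.7 and 46.2, -0.66) and Tpx2 (75.6 and 46.2, -0.61). In the rechallenged against the unchallenged library none of 26 was higher and 4 lower, with 4.55% of 3011 genes higher and 21.1% lower. Those were Cdca3, Smc4, Cdc20 and Cdca8, with Cdca3 at 155 and 84.2 CPM (-0.81). Against the challenged once library 2 of 29 were higher and 1 lower, with 6.42% of 3286 genes higher and 18.7% lower. Nusap1 (48.0 and 121 CPM, 1.18) and Kif11 (37.3 and 81.7, 0.95) were the higher ones. Scaled, the 3 splits were none and 2, 1 and 2, and 3 and 1. Of all genes that passed, 1.89%, 8.004% and 8.31% were higher on that scale and 2.04%, 14.05% and 15.5% lower.

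The monocyte-like sum was 1.11-fold (1.05 to 1.17) the unchallenged level after 1 challenge and 0.85-fold (0.81 to 0.90) in the rechallenged library, and 1.06-fold and 1.011-fold when scaled. After 1 challenge 2 of 27 members were higher and none lower, with 3.52% of 3520 genes higher and 2.84% lower. These were Tubb4b (167 and 299 CPM, log2 ratio 0.80) and Aurka (25.1 and 50, 0.78). In the rechallenged against the unchallenged library 1 of 30 was higher and 4 lower, with 5.96% of 3912 genes higher and 15.9% lower. Cdca8 (115 and 51.8, -1.02), Cenpf (58.1 and 28.7, -0.82), Kif20b (41.0 and 19.9, -0.77) and Cdc20 (67.2 and 35.8, -0.75) were the lower ones and Mki67 the higher one. Against the challenged once library none of 29 was higher and 6 lower, with 5.05% of 3937 genes higher and 18.7% lower. Scaled, the splits were 2 and none, 2 and 3, and 2 and 3. On that scale 2.53%, 12.5% and 12.5% of genes were higher and 3.89%, 7.11% and 7.87% lower.

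The same few members stood apart in the rechallenged library from one cell group to the next. They were chosen after their values were seen, and the cell groups share the same pair of libraries, so the groups are not replicates. The share of all genes that keep the same direction over the groups is not given here. Mki67 was higher than in the unchallenged library in 10 of 10 cell groups with enough UMIs, in 5 of them by 1.5-fold, with a median log2 ratio of 0.58. It stood at 75.2 and 119 CPM in monocyte-like cells. In B lineage-like cells it stood at 167 and 333 CPM, but these compare different mixes. Cluster 7 gave 473 of 1064 unchallenged and 147 of 177 rechallenged drawn cells, and within it Mki67 stood at 335 CPM (299 to 374) and 371 CPM (304 to 447), with overlapping intervals. The motor Kif11 and the spindle protein Ckap2l were each higher in 6 of 6 groups, with medians of 0.32 and 0.37. Cdc20 was lower in 6 of 6 groups, in 4 by 1.5-fold, with a median of -0.72, and stood at 116 and 50.8 CPM in B lineage-like (217 and 57.8 within cluster 7) and at 82.2 and 40.7 CPM in immature neutrophil-like cells. Kif20b was lower by 1.5-fold in 5 of 5 groups, with a median of -0.68. Cdca8 was lower in 7 of 7 groups, in 4 by 1.5-fold, with a median of -0.65. Scaled by the median ratio, Mki67 stayed higher in 10 of 10 groups, Cdc20 lower in 6 of 6, Kif20b lower in 5 of 5 (by 1.5-fold in 3) and Cdca8 lower in 6 of 7. Depth and the mitochondrial share also differed between these libraries, and their part was not tested.

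**Figure D5:**
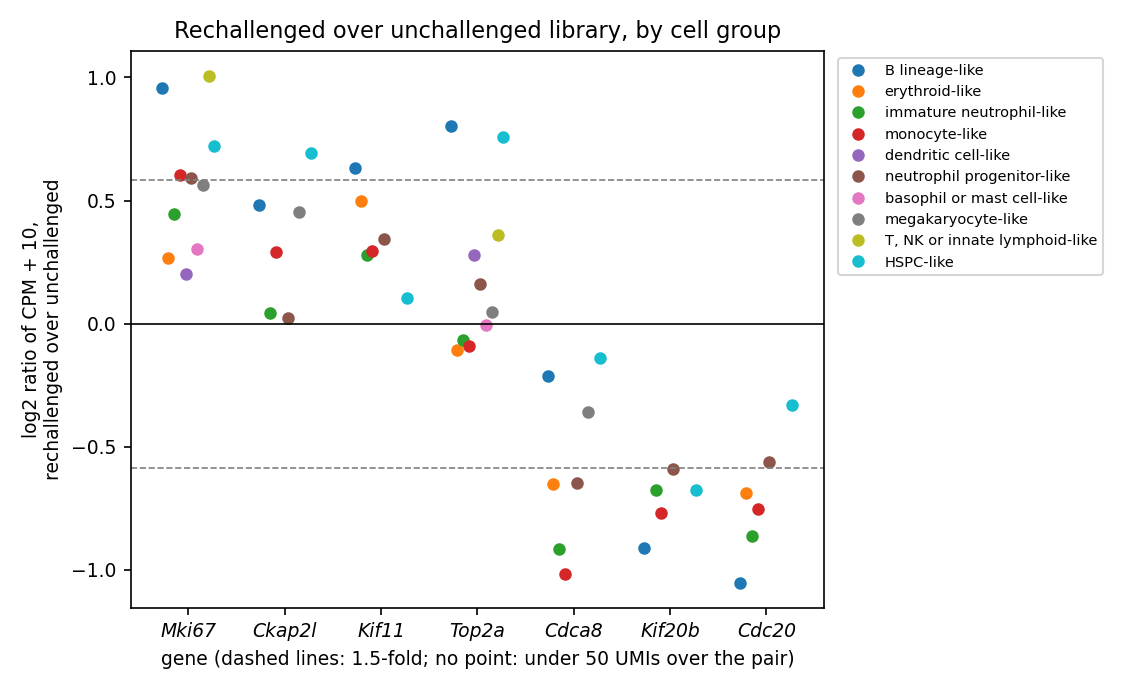
Log2 ratio of CPM + 10, rechallenged over unchallenged (y axis), for 7 members (x axis) in each cell group (colour) with at least 50 drawn UMIs over the pair, with dashed lines at 1.5-fold. Mki67 lies above 0 in 10 of 10 groups and Cdc20 below 0 in 6 of 6, while Top2a lies on both sides of 0.

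Genes outside the members with the pattern most like the 35-member sum were found over 56 sums of a cluster in a library. These share libraries and depth, so the correlations are a description. Of 4518 genes considered, Smc2 had the highest Pearson r of log2 (CPM + 10), at 0.95, followed by Spc24 (0.93), Incenp (0.92), Ccna2 (0.92), Ccnb1 (0.91) and Prc1 (0.90). H2afz, Sgo1, Slbp and Asf1b had 0.90, 0.90, 0.89 and 0.89. Smc2 is the condensin partner of Smc4, Incenp the scaffold of the passenger complex, and Ccna2 and Ccnb1 are cyclins of the same phases. Slbp, which binds histone mRNAs, was in the S phase list. Among the members, Ube2c and Birc5 followed the sum they are part of most closely (r 0.95 each), and Hjurp (0.41), Psrc1 (0.42) and Kif23 (0.48) least. Psrc1, a microtubule protein, was at 15.9, 13.3 and 18.2 CPM in HSPC-like and at 3.37, 4.52 and 2.42 CPM in neutrophil progenitor-like cells.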

How the data were processed

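Single-cell RNA libraries from Kit-enriched mouse bone marrow were measured, 1 per group, by the sample labels. The deposited tables hold whole UMI counts per gene and barcode made by the authors with Cell Ranger 3.0.0 on mm10, per the submitters' processing notes. The annotation they counted against is not given in the sources used here. Barcodes were used as cells where they held 500 or more UMIs, 300 or more genes and a mitochondrial share of no more than 10%, and Scrublet calls (6% expected rate; 4.63%, 3.40% and 3.00% called) were left out. Cells were clustered with scanpy 1.11.5 and leidenalg 0.10.2 (2000 variable genes, 30 components, 15 neighbours, resolution 1). The members, other cycle genes, a short list of histone and chromatin genes such as H2afz, and ribosomal protein, mitochondrial and sex-linked genes were left out. Histone genes with symbols that begin with Hist were kept. They were left out only in the alternative run that also left out response genes. Clusters were named from marker lists, with at least 3 markers at 2-fold. Clusters that did not meet the rule stayed unnamed. Macrophage-like cells had under 50 drawn cells and are not reported.

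Counts were drawn to 2000 UMIs per cell. Intervals are exact Poisson for levels, exact binomial for ratios of sums and Clopper-Pearson for shares. Member ratios add 10 CPM, need 50 UMIs over the pair and are called at 1.5-fold. Median-of-ratios scaling, other draws, filters, clusterings and pseudocounts were the alternatives. The steps were tested on simulated data. The tools were Python 3.11.15, numpy 2.4.6, scipy 1.17.1, pandas 2.3.3, anndata 0.12.19, scikit-learn 1.9.0 and matplotlib 3.10.9. Named members are up to 4 of each role with the highest mean level over all kept cells, the extremes of the HSPC-like to mature neutrophil-like ratio, and the 4 furthest apart in each comparison. Outside the members, the 10 genes most correlated with the sum were named, among those with a mean of at least 20 CPM. The members and the lists were chosen with earlier results of these data known.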

Additional observations from a re-analysis of the deposited data

Results flagged for a closer look

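In each pair of libraries, cell groups lay on opposite sides of equality for the 35-member sum, with counting intervals that exclude it. The difference between the groups was not tested. For the challenged once over the unchallenged library, the log2 ratio was 0.42 in HSPC-like and -0.35 in B lineage-like cells. For the rechallenged over the unchallenged library, it was 0.25 in HSPC-like and -0.30 in erythroid-like cells. For the rechallenged over the challenged once library, it was 0.45 in B lineage-like and -0.46 in immature neutrophil-like cells. B lineage-like cells are a mix of clusters, and one of these had 651, 956 and 14 cells in the unchallenged, challenged once and rechallenged libraries. In B lineage-like cluster 7 the sum was 0.88-fold (0.85 to 0.91) in the first of these pairs and 0.76-fold (0.72 to 0.80) in the last. The last thus went the other way within that cluster.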

How the results depend on the processing

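The summed level in HSPC-like cells, challenged once over unchallenged, kept its direction and moved by less than its counting interval in each alternative run. Over the 66 repeats of the 6 sums, 41 stayed within that interval, 21 moved beyond it and 4 reversed. Sums are log2 ratios, counts are members at least 1.5-fold apart, and the cause of each difference was not tested. Shares of all genes called were computed for the main and scaled runs only. The pairs are named in the order challenged once over unchallenged, rechallenged over unchallenged, and rechallenged over challenged once. Scaled by the median of gene ratios, the HSPC-like sums were 0.43 and 0.0094 (second and last pair; the last reversed). The neutrophil progenitor-like sums were 0.11, 0.16 and 0.00016, the last 2 reversed. Clustering on all variable genes gave HSPC-like sums of 0.55 and 0.062 (the last reversed), 12 members in the second pair and a rechallenged share of 37.6%. It gave neutrophil progenitor-like sums of 0.11 and -0.22 in the first 2 pairs, with shares of 51.2% and 61.8% in the unchallenged and challenged once libraries. Without the draw, the HSPC-like sums were 0.13 and -0.25 (last 2 pairs), the counts 0 and 1 (first 2 pairs) and the shares 65.9%, 76.9% and 60.1%. The neutrophil progenitor-like shares were 98.7%, 99.3% and 98.4%. A draw to 1000 UMIs gave HSPC-like counts of 1 and 4 (last 2 pairs), a neutrophil progenitor-like count of 1 (second pair), and shares of 11.4%, 18.3% and 15.9% in HSPC-like and 17.02%, 20.2% and 13.97% in neutrophil progenitor-like cells. A draw to 4000 gave 35.7%, 54.1% and 46.7%, and 76.7%, 91.1% and 83.5%. Another random seed gave HSPC-like counts of 8, 3 and 4, a neutrophil progenitor-like count of 4 (first pair) and sums of -0.029 and -0.23 (last 2 pairs). So the number of members past 1.5-fold moved with the seed. With doublet calls kept, the HSPC-like counts were 2 and 2 (first 2 pairs), the neutrophil progenitor-like sums 0.14 and -0.24 (first and last pair) and the shares 50.6%, 62.8% and 53.03%. Adding 1 CPM gave counts of 7, 8 and 4 in HSPC-like and 6 and 7 (last 2 pairs) in neutrophil progenitor-like cells, and no minimum gave 8 (HSPC-like, second pair). Resolution 2 gave an HSPC-like sum of -0.27 and count of 4 (last pair), a neutrophil progenitor-like sum of -0.15 (second pair) and shares of 48.6% and 61.8% (first 2 libraries). With all 38 members the HSPC-like sum was -0.28 (last pair) and the neutrophil progenitor-like sums -0.013 and -0.25 (last 2 pairs). A minimum of 1000 UMIs and 500 genes gave neutrophil progenitor-like sums of 0.16 and -0.14 (first 2 pairs) and a challenged once share of 60.6%. Leaving response and histone genes out of clustering, chosen after seeing the data, gave an HSPC-like count of 4 (last pair), neutrophil progenitor-like sums of 0.15, -0.19 and -0.35, and shares of 50.4%, 63.7% and 49.5%. No paired analysis was possible because each group has 1 library, so no library could be left out either. Depth limits single members: many had few UMIs in HSPC-like cells.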
